A study of Homo sapiens with 4 samples.

Results

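The Hippo pathway output genes described here are 10 of the 19739 genes of the deposited coding table: the coactivators YAP1 and WWTR1, the kinases LATS1 and LATS2, the angiomotin-like inhibitor AMOTL2, the matricellular genes CCN1, CCN2 and THBS1, and the target genes ANKRD1 and NT5E. All 10 were found under these symbols. They were chosen by name, with their FPKM in these libraries already known, so every level and ratio of a member is a description and carries no test.

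In the Hippo pathway the kinases LATS1 and LATS2 phosphorylate YAP (gene YAP1) and its relative TAZ (gene WWTR1), which holds them in the cytoplasm and marks them for decay. When the kinases are idle, as in spread cells on a stiff surface or in fresh serum, YAP and TAZ enter the nucleus. There they bind TEAD factors, since they have no DNA-binding domain of their own. CCN1, CCN2 and ANKRD1 are the transcripts most often read as YAP output, while LATS2 and AMOTL2 are both targets and inhibitors. Phosphorylation and location of YAP are not measured by RNA sequencing. In liver the pathway restrains organ size, and YAP is active in many liver tumours.

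The study has 4 libraries in 4 groups: untreated cells labelled HepG2, the same label after low-frequency ultrasound plus RSL3@O2-ICG NBS for 24 h, untreated Huh7, and Huh7 after that same treatment. Both names stand for human liver cancer lines, kept in DMEM with serum, and RSL3 is an inhibitor of the lipid peroxide reductase GPX4. With 1 library per group there is no replicate, no SD and no test within a line, and no group here had ultrasound or RSL3 alone. Values are FPKM, fragments per kilobase of transcript and per 1000000 fragments, and of each pair the untreated library comes first. Depth read from the low values was 22900000 to 26400000 fragments per library, so 1 FPKM over 1 kb rests on 23 to 26 fragments. The libraries labelled HepG2 do not show the markers of that line: all 12 hepatocyte markers, ALB and AFP among them, were under 1 FPKM in both, with sums of 0.528 and 0.435 FPKM. In Huh7 none of the 12 was under 1 FPKM. The first line is therefore called by its label.

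The sequence that TEAD factors are known to bind was searched for in the promoter windows of the members. Matches lay in windows of CCN2, THBS1, ANKRD1 and AMOTL2, which were lower after treatment in both lines. One also lay in that of YAP1, which hardly differed. LATS1 and LATS2, lower under the HepG2 label, and WWTR1, lower in Huh7, had no match. Whether the matches bear on the levels was not tested. RefSeq promoter windows (GRCh38.p14) matched 9 members, all but CCN1, and the 250 bases before each RefSeq start were searched on both strands for GGAATG. This motif lay in 11.9% of all 35116 such windows, and 3 or more copies lay in 0.0826% (29 windows). The CCN2 window held 3 copies, the ANKRD1 window 2, and the THBS1 window, the YAP1 window and 1 of the 2 AMOTL2 windows 1 each. No match was found in the windows of WWTR1, LATS1, LATS2 and NT5E. RefSeq starts can lie downstream of the start listed in the deposited table: 5 of the 12 windows of members lie wholly inside the gene as listed, those being both of WWTR1, 1 of LATS1, the AMOTL2 window with the match and that of NT5E. For these the search says nothing about the sequence before the listed start. In the sequences that follow, 5′ to 3′ on the gene's strand, capitals mark GGAATG or its reverse complement. The CCN2 stretch (chr6:131951423-131951622, minus strand) and the THBS1 stretch (chr15:39580829-39581078, plus strand) lie before the listed start and in no annotated exon. The ANKRD1 sites (chr10:90921290-90921319 and chr10:90921198-90921227, minus strand) and the AMOTL2 site (chr3:134374499-134374528, minus strand) are given with 12 bases on either side. The second ANKRD1 site and the AMOTL2 site lie inside a GENCODE 29 exon. The YAP1 site is not printed.
CCN2: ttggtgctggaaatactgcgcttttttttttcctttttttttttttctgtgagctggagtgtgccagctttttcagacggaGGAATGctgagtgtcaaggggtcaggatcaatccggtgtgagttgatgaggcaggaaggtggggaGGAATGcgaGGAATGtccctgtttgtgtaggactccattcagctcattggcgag
THBS1: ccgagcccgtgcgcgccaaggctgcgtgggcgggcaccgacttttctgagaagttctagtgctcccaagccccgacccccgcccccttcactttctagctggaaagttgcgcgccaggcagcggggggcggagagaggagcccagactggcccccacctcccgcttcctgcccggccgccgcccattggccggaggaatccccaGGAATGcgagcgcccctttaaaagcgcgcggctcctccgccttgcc
ANKRD1, far site: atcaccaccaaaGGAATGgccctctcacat
ANKRD1, near site: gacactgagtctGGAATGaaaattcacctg
AMOTL2: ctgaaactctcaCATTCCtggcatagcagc

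The copies in CCN2 began 169, 104 and 95 bases before the start and the THBS1 copy 46 bases before it, where both sources list the same start. The ANKRD1 copies began 220 and 128 bases before the RefSeq start, which lies 189 bases downstream of the listed one, so that the far site began 31 bases before the listed start and the near site 61 bases after it. The AMOTL2 copy began 69 bases before its RefSeq start and 963 bases after the listed one. TGANTCA, a loose form of the AP-1 motif that takes any base at its centre, was found in 6.57% of windows. It lay in the ANKRD1 window as TGATTCA and in 1 of the LATS1 windows as TGAATCA. The CArG box bound by SRF, found in 1.16% of windows, lay in none of those of the 9 members with a window. CCN1 had no window and was not searched. A match is only a match of letters, and binding was not measured here. Of the 22 genes of the YAP and TAZ signature described further on, 16 had a window and 8 of these held GGAATG. The members AMOTL2, ANKRD1 and CCN2 are among the 8. A gene can have several windows, and the share above is per window (35116 windows of 27305 genes). The count of genes is therefore not comparable with that share.

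The coactivator transcripts hardly differed between treated and untreated libraries. YAP1 (ENSG00000137693; chromosome 11, 102110447 to 102233424) stood at 39.3 FPKM untreated against 38.4 FPKM treated under the HepG2 label, and at 13.5 against 13.4 FPKM in Huh7. Its log2 ratios, computed throughout as log2((treated FPKM + 1)/(untreated FPKM + 1)), were −0.03 and −0.01, and the first turned to 0.01 when libraries were rescaled to 1 sum. WWTR1 (ENSG00000018408; chromosome 3, 149517235 to 149736714) stood at 15.4 against 17.4 FPKM under the HepG2 label and at 5.19 against 4 FPKM in Huh7, log2 ratios of 0.17 and −0.31. The sum of YAP1 and WWTR1 was 54.6 and 55.9 FPKM under the HepG2 label and 18.7 and 17.4 FPKM in Huh7. YAP1 thus outnumbered WWTR1 per length in every library, by 2.2 to 3.34 times. The positions listed for all 10 members match GENCODE 29 within 151 bases at either end, so they are GRCh38 coordinates by this match.

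The kinases LATS1 and LATS2 moved in no common direction across the lines. LATS1 (ENSG00000131023; chromosome 6, 149658153 to 149718105) stood at 4.97 against 3.78 FPKM under the HepG2 label and at 6.6 against 8.43 FPKM in Huh7, log2 ratios of −0.32 and 0.31. LATS2 (ENSG00000150457; chromosome 13, 20973036 to 21061586) stood at 9.25 against 6.04 FPKM, and at 6.32 against 6.44 FPKM in Huh7. Its log2 ratios were −0.54 and 0.02, the latter below 0 after rescaling to 1 sum (−0.0047) and with size factors (−0.082). The treated library was thus lower for both kinases under the HepG2 label, short of 2-fold, while in Huh7 the difference in LATS2 was of either sign.

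AMOTL2, a junction protein that holds YAP at the cell border, was lower after treatment by nearly the same ratio in both lines, short of 2-fold. It (ENSG00000114019; chromosome 3, 134355874 to 134375479) stood at 50.3 FPKM untreated against 30.1 FPKM treated under the HepG2 label, and at 54.6 against 30.6 FPKM in Huh7. These are 1.65-fold and 1.76-fold lower on the FPKM + 1 scale, log2 ratios of −0.72 and −0.81. Untreated levels of AMOTL2 were nearly the same in both lines, which was not so for the matricellular genes.

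**Figure D1:**
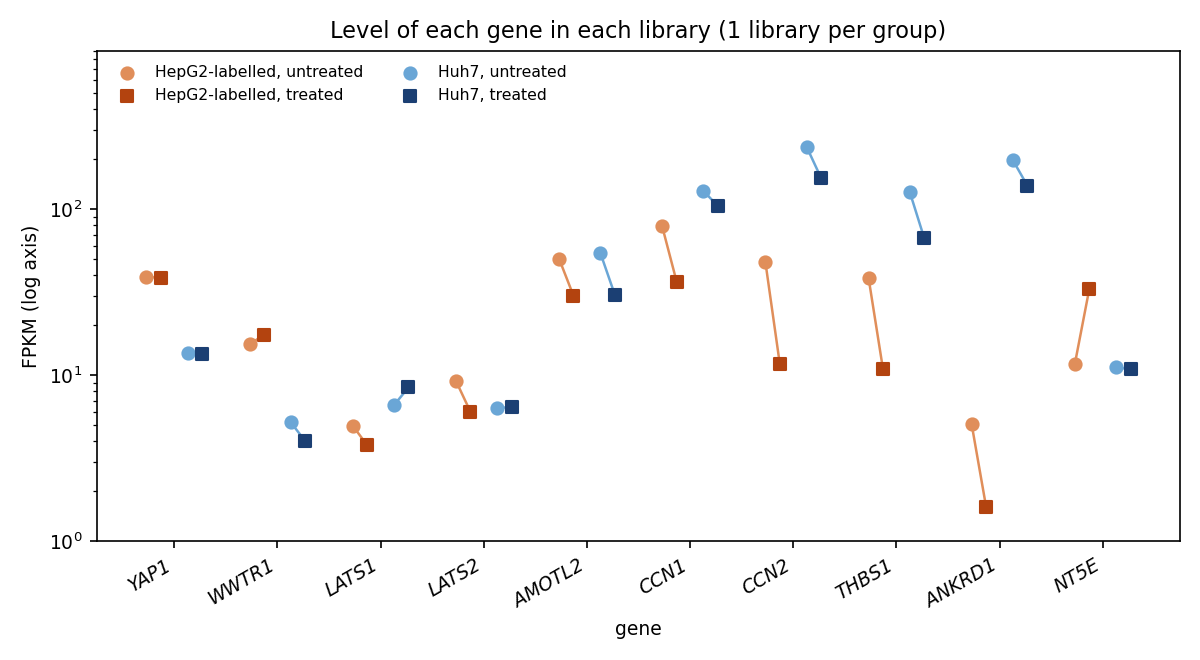
FPKM (log axis) of the 10 genes in the 4 libraries, 1 library per group, with a line joining the untreated (circle) and treated (square) library of a line. Treated libraries were lower for AMOTL2, CCN1, CCN2, THBS1 and ANKRD1 in both lines, YAP1 lay within 1 FPKM of its untreated level, and NT5E was higher under the HepG2 label alone, at 33 against 11.7 FPKM.

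The matricellular genes were lower after treatment in both lines, and by more under the HepG2 label. These encode secreted proteins that bind integrins and matrix and act on the cell rather than as scaffold. CCN2, once called CTGF, a binder of integrins and growth factors that promotes fibrosis (ENSG00000118523; chromosome 6, 131948176 to 131951372), stood at 48.1 FPKM untreated against 11.7 FPKM treated under the HepG2 label. In Huh7 it stood at 237 against 154 FPKM, so that even the treated Huh7 library was above the untreated HepG2-labelled one. CCN2 was 3.87-fold lower in the first line and 1.54-fold lower in the second, log2 ratios of −1.95 and −0.62. Only 20 of 11843 measured genes, those at 1 FPKM or more in at least 1 library of the line, had a lower ratio under the HepG2 label, against 813 of 11945 in Huh7.

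CCN2 has a single annotated transcript of 2339 bases, so its FPKM can be turned into about 2894 and 631 fragments under the HepG2 label and 14656 and 8260 in Huh7. The exact 95% binomial intervals of its plain FPKM ratio, treated over untreated, were 0.222 to 0.264 and 0.632 to 0.668. They cover counting error only, not the spread between cultures, and the difference between the lines was not tested.

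THBS1, which encodes thrombospondin 1, a matrix protein that blocks angiogenesis and activates latent TGF-beta (ENSG00000137801; chromosome 15, 39581079 to 39599466), stood at 38.7 against 10.9 FPKM under the HepG2 label. In Huh7 it stood at 127 against 66.9 FPKM. It was 3.33-fold and 1.88-fold lower, log2 ratios of −1.74 and −0.91, the lowest of the 10 genes in Huh7, and 326 of 11945 genes there had a lower ratio. With size factors the ratio in Huh7 was −1.03, past 2-fold. Of the THBS1 exonic bases 4.89% are shared with FSIP1 on the other strand, which stood at 3.75 against 1.35 FPKM under the HepG2 label and at 10.7 against 6.87 FPKM in Huh7. Strand use in counting was not given in the sources used here, and reads of FSIP1 and THBS1 over the shared bases cannot be told apart. Each of the other partners listed in the tables was under 1 FPKM in all 4 libraries.

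CCN1, once called CYR61, an angiogenic relative of CCN2 (ENSG00000142871; chromosome 1, 85580761 to 85583950), stood at 78.7 against 36.6 FPKM under the HepG2 label and at 129 against 104 FPKM in Huh7. It was 2.12-fold lower in the first line and 1.23-fold lower in the second, log2 ratios of −1.08 and −0.3. The untreated library labelled HepG2 held more CCN1 than CCN2, and untreated Huh7 the reverse, with CCN2 at 0.612 and 1.84 times CCN1 in FPKM. After treatment these quotients were 0.319 and 1.48. The sum of CCN1, CCN2 and THBS1 went from 165 to 59.2 FPKM under the HepG2 label and from 493 to 325 FPKM in Huh7. In bulk RNA, fewer cells with a transcript and less of it per cell cannot be told apart.

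ANKRD1, a nuclear ankyrin repeat protein of stretched muscle and a standard YAP target (ENSG00000148677; chromosome 10, 90912096 to 90921276), stood at 5.05 against 1.61 FPKM under the HepG2 label and at 197 against 139 FPKM in Huh7. It was 2.32-fold and 1.42-fold lower on the FPKM + 1 scale, log2 ratios of −1.21 and −0.5. Since 1.61 FPKM is low, that scale understates its first change. With its single transcript of 1979 bases, ANKRD1 rests on about 257 and 73 fragments under the HepG2 label, a plain FPKM ratio of 0.318 (exact 95% binomial interval 0.24 to 0.411, counting error only). In Huh7 the ratio was 0.703 (0.682 to 0.726), from about 10291 and 6280 fragments.

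NT5E differed from the other targets. It encodes CD73, the surface enzyme that turns AMP into the immunosuppressive signal adenosine (ENSG00000135318; chromosome 6, 85449584 to 85495791). It stood at 11.7 FPKM untreated against 33 FPKM treated under the HepG2 label, 2.68-fold higher (log2 ratio 1.42), and 97.8% of measured genes had a lower ratio. In Huh7 it stood at 11.2 against 10.8 FPKM, a log2 ratio of −0.04. The untreated lines were thus close to each other in NT5E, and the treated library labelled HepG2 stood above the other 3. In the rest of the extracellular adenosine pathway 0 of 7 measured genes were past 2-fold on the FPKM + 1 scale under the HepG2 label (median log2 ratio 0.02) and 0 of 9 in Huh7 (0.19). All measured genes had shares of 2.43% lower and 6.7% higher under the HepG2 label, and 2.19% and 3.88% in Huh7. In this pathway ADORA2B, an adenosine receptor, stood at 13.7 against 25.5 FPKM and at 7.2 against 5.37 FPKM in Huh7. ENTPD2, an enzyme that degrades ATP ahead of CD73, stood at 0.126 against 1.11 FPKM and at 1.72 against 2.1 FPKM in Huh7. With a pseudocount of 0.1 it was past 2-fold higher under the HepG2 label, at a log2 ratio of 2.43.

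Counted together, 4 of the 10 members were at least 2-fold lower and 1 at least 2-fold higher in the treated library labelled HepG2. Over all 11843 measured genes the shares were 2.43% lower and 6.70% higher. In Huh7 no member passed 2-fold in either direction, where 2.19% of 11945 genes were lower and 3.88% higher. The split of calls in Huh7, 464 higher and 261 lower, became 336 and 340 with size factors, which moved the median log2 ratio of all genes there from 0.10 to −0.00, a shift of −0.10. The median of the members was −0.63 under the HepG2 label and −0.31 in Huh7, against 0.09 and 0.10 over all measured genes. As the members were chosen with these values known, nothing is read from these shares about the pathway.

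**Figure D2:**
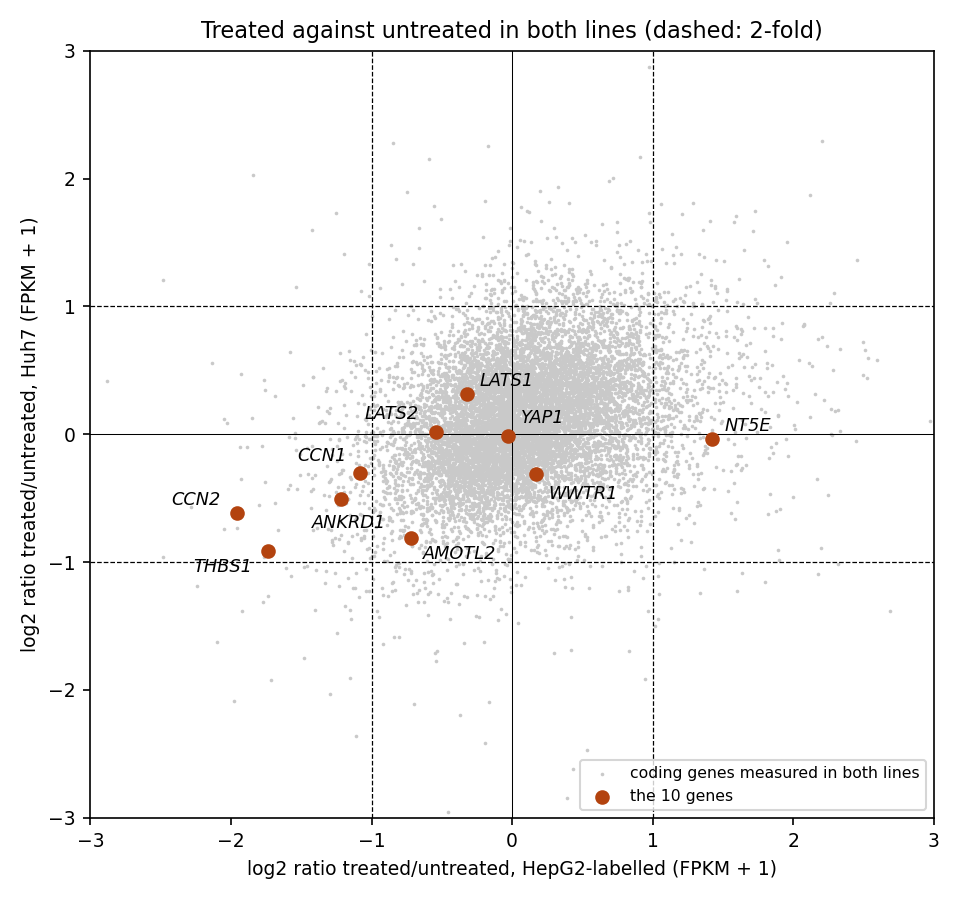
Log2 ratio of treated to untreated (FPKM + 1) under the HepG2 label (x) and in Huh7 (y) for coding genes measured in both lines (grey; points beyond 3 on either axis are not drawn) and the 10 genes (red), with 2-fold marked by dashed lines. CCN1, CCN2, THBS1, ANKRD1 and AMOTL2 lie below 0 on both axes, NT5E at 1.42 and −0.04, and YAP1 near the origin.

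The order of the levels differed between the lines. Under the HepG2 label the untreated order was CCN1, AMOTL2, CCN2, YAP1, THBS1, WWTR1, NT5E, LATS2, ANKRD1 and LATS1, and in Huh7 it was CCN2, ANKRD1, CCN1, THBS1, AMOTL2, YAP1, NT5E, LATS1, LATS2 and WWTR1. In the treated library labelled HepG2 YAP1 was the first and CCN2 the sixth, while both Huh7 libraries had the same order. With 1 library per group, no spread over samples can be given for neighbours in either order.

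Between the untreated lines ANKRD1, CCN2 and THBS1 stood far apart, while the other targets were short of 2-fold. ANKRD1 was 32.7-fold higher in untreated Huh7 than in the untreated library labelled HepG2 (log2 ratio 5.03), CCN2 4.85-fold and THBS1 3.22-fold higher. YAP1 was 2.77-fold lower and WWTR1 2.65-fold lower there. CCN1 was 1.63-fold and AMOTL2 1.08-fold higher in Huh7, and LATS2 was 1.4-fold and NT5E 1.04-fold lower. So 3 members were at least 2-fold higher in Huh7 and 2 at least 2-fold lower, where 17.5% and 17.2% of 12446 genes were. As the members were chosen with their values known, nothing is read from these counts. CCN2 stood at 0.881 times the summed YAP1 and WWTR1 level under the HepG2 label and at 12.7 times in Huh7, and after treatment at 0.209 and 8.87 times. These comparisons share the untreated libraries with the treatment ratios, and line and library cannot be told apart.

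Upstream of the coactivators, the Hippo kinases and scaffolds had list medians near 0, with single genes on either side. This list holds the kinases STK3 and STK4 that activate LATS, their partners SAV1 and MOB1A, NF2, and the junctional and phosphatase proteins that tune them. Under the HepG2 label 0 of 29 measured genes were past 2-fold in either direction (median log2 ratio 0.03). There 2.43% of all measured genes were lower and 6.7% higher. In Huh7, 2 of 27 were higher and 0 lower (median −0.01), where 3.88% and 2.19% of all measured genes were. Those higher were TAOK1, a kinase above STK3 and STK4, at 15 against 31.6 FPKM, and SLMAP, which brings a phosphatase to these kinases, at 3.55 against 8.62 FPKM. FAT4, an atypical cadherin upstream of the kinases, was at 1.36 against 0.281 FPKM and WTIP, a LIM protein that binds LATS, at 0.449 against 1.74 FPKM under the HepG2 label. Both passed 2-fold with a pseudocount of 0.1. The core kinases STK3 and STK4 did not pass 2-fold in either line. STK3 stood at 7.61 against 4.99 FPKM under the HepG2 label and at 5.33 against 6.37 FPKM in Huh7, and STK4 at 8.96 against 9.92 and at 6.26 against 12 FPKM. TAOK1 and SLMAP lost this place with size factors, where 0 of the list were past 2-fold higher. The counts of so short a list are not read as a result about it.

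The DNA-binding partners were read in both lines. Of the TEAD factors and their VGLL cofactors, 0 of 5 measured genes were past 2-fold under the HepG2 label (median 0.32) and 0 of 6 in Huh7 (−0.11). The shares over all measured genes were 2.43% lower and 6.7% higher under the HepG2 label, and 2.19% and 3.88% in Huh7. With so few genes listed, a count of 0 says little. TEAD1 stood at 17 against 17.4 FPKM and at 6.44 against 8.61 FPKM in Huh7, and TEAD4 at 21.1 against 14.3 FPKM and at 10.8 against 10.4 FPKM. VGLL3, a cofactor that also binds TEAD factors, stood at 0.903 against 0.353 FPKM under the HepG2 label and at 206 against 123 FPKM in Huh7, a log2 ratio of −0.74 there.

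The wider target genes were tallied with a published pan-cancer signature of 22 YAP and TAZ targets, of which 6 are members here (AMOTL2, LATS2, CCN1, CCN2, ANKRD1 and NT5E). Without these 6, 13 of 16 measured genes had a ratio below 0 under the HepG2 label and 8 of 12 in Huh7. Over all measured genes 43.1% and 41.2% did. The list itself was chosen with earlier results of these data known, so its counts are a description. The medians of the genes without these 6 were −0.24 and −0.26, and 1 of 16 and 3 of 12 were at least 2-fold lower, with none higher. The shares of all measured genes were 2.43% and 2.19% lower, and 6.7% and 3.88% higher. With the members, 18 of 22 and 13 of 18 were below 0. Among the 18 signature genes measured in both lines, members included, 11 were below 0 in both and 0 above 0 in both. Of the 10758 coding genes measured in both, 23.3% were below 0 in both. The members AMOTL2, CCN1, CCN2 and ANKRD1 are among the 11 and were chosen with their values known, so nothing is read from this count.

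The genes past 2-fold outside the members were few and are named for that reason, after their values were seen. TGFB2, a TGF-beta ligand, stood at 2.7 against 0.544 FPKM under the HepG2 label and at 4.64 against 2.21 FPKM in Huh7, log2 ratios of −1.26 and −0.81. NUAK2, an AMPK-related kinase that feeds back on YAP, stood at 10 against 5.28 FPKM and at 18.6 against 8.73 FPKM, log2 ratios of −0.81 and −1.01. CCDC80, a secreted matrix-binding protein, stood at 1.06 against 0.418 FPKM and at 23.9 against 6.69 FPKM, log2 ratios of −0.54 and −1.69. IGFBP3, a secreted binder of insulin-like growth factors, stood at 14.1 against 11.8 FPKM and at 73.7 against 26.7 FPKM, log2 ratios of −0.24 and −1.43. The receptor kinase AXL went the other way under the HepG2 label, at 80 against 134 FPKM (log2 ratio 0.73), and stood at 0.241 against 0.195 FPKM in Huh7.

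**Figure D3:**
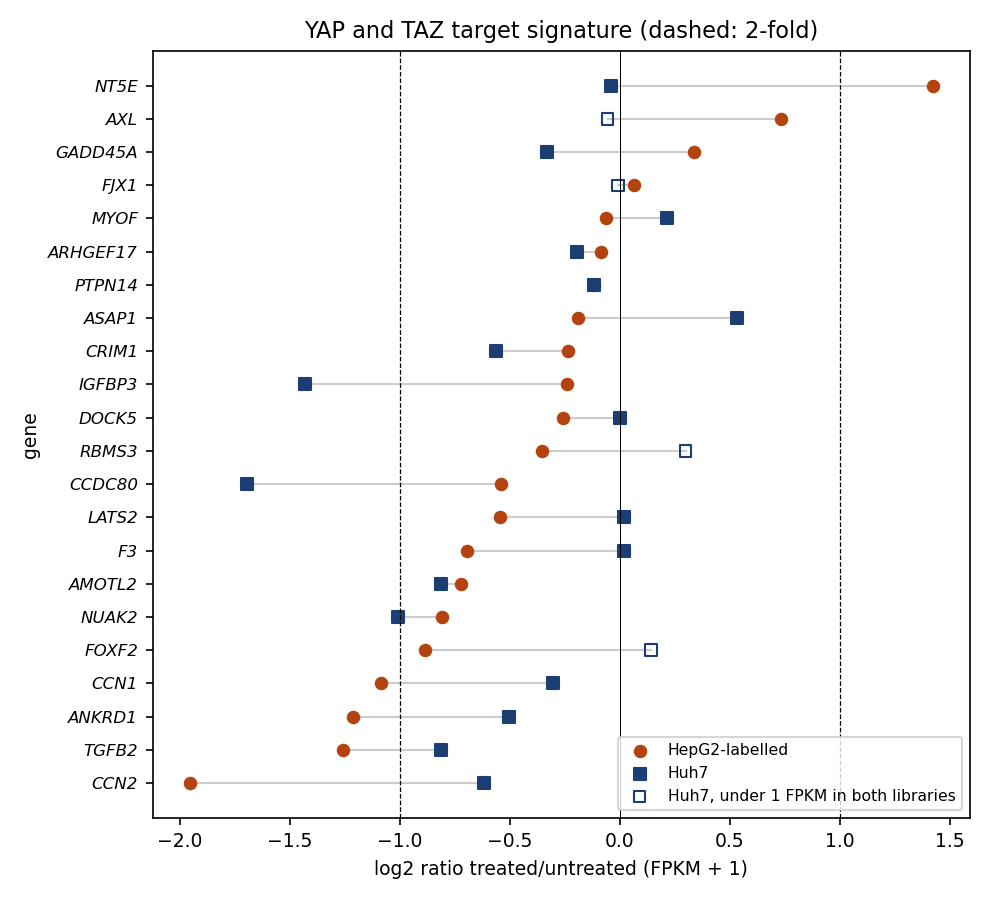
Log2 ratio of treated to untreated (FPKM + 1) of the 22 signature genes under the HepG2 label (red circles) and in Huh7 (blue squares; open where both libraries were under 1 FPKM), with 2-fold dashed. Most points lie left of 0, CCN2 is lowest under the HepG2 label at −1.95 and CCDC80 in Huh7 at −1.69, and NT5E lies at the upper right.

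A test over the 4 libraries was made with limma, with cell line as a block and 1 residual degree of freedom, and read only for genes outside the members. It asks whether the mean treatment difference over both lines departs from 0, and unlike differences in the lines enter its error. Whether the lines moved alike is not what it tests. At an adjusted p (Benjamini-Hochberg) under 0.05 it called 0 of 13030 genes (0.0%), with 1534 at an unadjusted p under 0.05. Of the 16 signature genes outside the members, 4 had an unadjusted p under 0.05, NUAK2, TGFB2, CCDC80 and IGFBP3, with adjusted p of 0.28, 0.289, 0.306 and 0.366 in limma. All 4 were lower in both lines and none passed the correction.

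Other families of matricellular genes and their receptors held members on both sides. Among the other CCN and thrombospondin genes 3 were measured in each line. CCN5, a CCN protein without the last domain of the family, stood at 181 against 49.8 FPKM under the HepG2 label, a log2 ratio of −1.85 close to that of CCN2, and at 0.0137 against 0.0317 FPKM in Huh7. CCN3 stood at 33.5 against 21.3 FPKM (−0.63) and at 1.5 against 0.753 FPKM. THBS3, a thrombospondin of another subgroup, was higher in both lines where THBS1 was lower, at 3.26 against 8.17 FPKM and at 2.46 against 6.47 FPKM, log2 ratios of 1.11 in each. Of the other matricellular genes none of 7 was past 2-fold in either line on the FPKM + 1 scale (medians 0.49 and −0.06). The shares over all measured genes were 2.43% lower and 6.7% higher under the HepG2 label, and 2.19% and 3.88% in Huh7. With a pseudocount of 0.1, 1 of these matricellular genes was higher under the HepG2 label (FBLN5), and in Huh7 1 was higher (IGFBP7) and 1 lower (SMOC1). IGFBP7, a secreted binder of insulin-like growth factors, had ratios of either sign, at 243 against 210 FPKM (log2 ratio −0.21) and at 2.64 against 5.66 FPKM in Huh7 (0.87). SMOC1 did too, in reverse, at 46.6 against 69.2 FPKM (0.56) and at 1.87 against 0.839 FPKM (−0.64).

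Among the receptors of CCN proteins and thrombospondin 1, 2 of 14 measured genes were at least 2-fold higher under the HepG2 label and 2 of 12 in Huh7, none lower (medians 0.2 and −0.02), where 6.70% and 3.88% of all measured genes were higher. With size factors 0 were higher in Huh7. ITGA3, an integrin chain, was higher in both, at 31.2 against 77.7 FPKM and at 0.808 against 2.68 FPKM. ITGB3, the beta chain of a vitronectin receptor, stood at 0.317 against 2.19 FPKM under the HepG2 label. CD47, the thrombospondin 1 receptor known as a signal against phagocytosis, stood at 10.9 against 14.4 FPKM and at 4.52 against 10.6 FPKM in Huh7. ITGAV, the shared alpha chain of several CCN-binding integrins, stood at 18.4 against 9.68 FPKM (−0.86) and at 23 against 21.8 FPKM.

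CCN1 and CCN2 also answer to SRF with its actin-sensing partners MRTFA and MRTFB, so genes of that programme were tallied too. Of 19 measured SRF and MRTF genes under the HepG2 label 4 were at least 2-fold higher and 2 lower (median 0.06), and of 16 in Huh7 0 were higher and 1 lower (−0.23). Of all measured genes 6.70% were higher and 2.43% lower under the HepG2 label, and 3.88% and 2.19% in Huh7. In Huh7 2 of the list were lower with size factors, after rescaling to 1 sum or with a pseudocount of 0.1, which also gave 1 higher (MRTFB). The lower ones under the HepG2 label were CALD1, an actin-binding caldesmon, at 33.1 against 9.74 FPKM, and TAGLN at 3.59 against 1.25 FPKM. The higher ones were ACTA2, TPM4, FHL1 and TGFB1I1, with TPM4, a tropomyosin, at 54.3 against 138 FPKM. In Huh7 TPM4 was the lower one, at 249 against 105 FPKM, and CALD1 stood at 46.6 against 27.3 FPKM. SRF itself stood at 16.4 against 15.4 FPKM and at 10.2 against 10.7 FPKM.

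**Figure D4:**
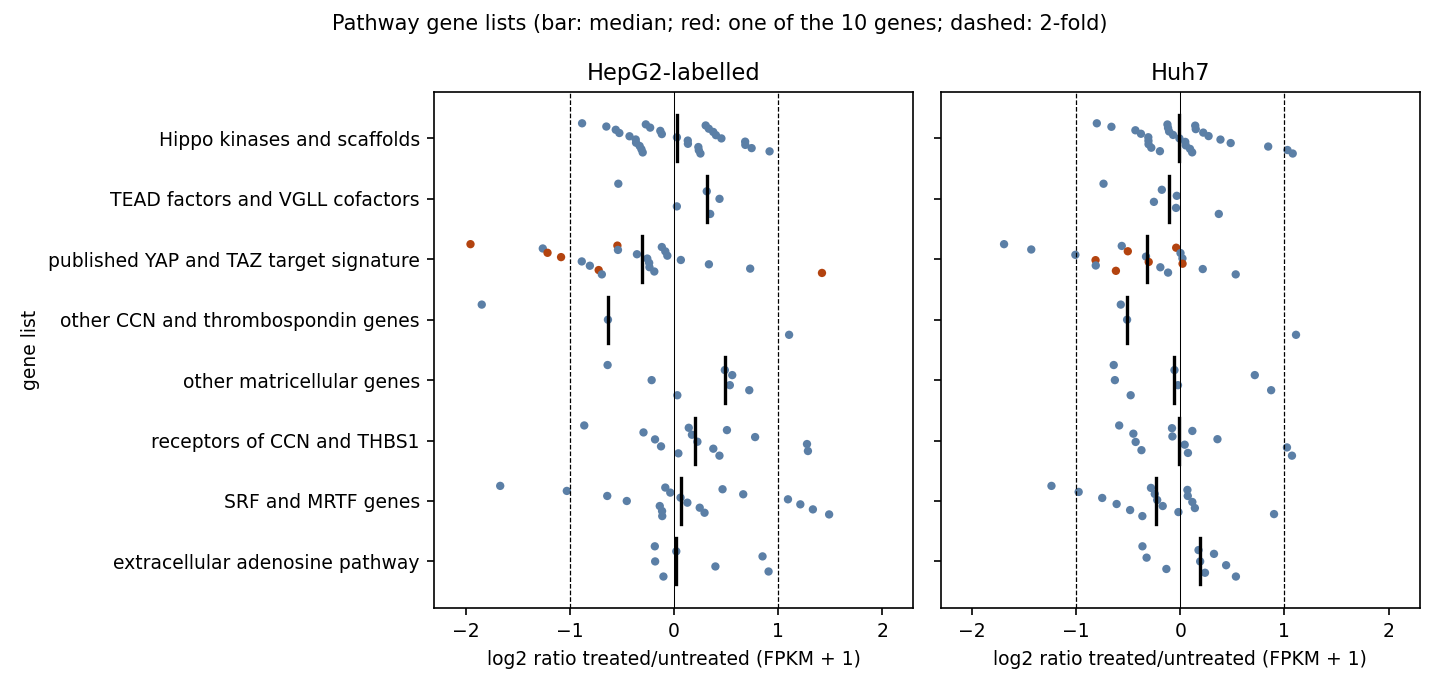
Log2 ratio of treated to untreated (FPKM + 1) of each measured gene of 8 lists (rows) in each line (panels), with the list's median as a bar, members of the 10 genes in red and 2-fold dashed. The signature's median lies at −0.31 under the HepG2 label and −0.32 in Huh7, while that of the Hippo kinases and scaffolds lies at 0.03 and −0.01.

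Markers of other cells were looked at because CCN2, THBS1 and NT5E are also read in fibroblasts and vessels. Of 12 fibroblast and stellate markers 6 were under 1 FPKM in both libraries labelled HepG2 and 9 in both Huh7 libraries. Their sum, 510 and 566 FPKM and 642 and 805 FPKM, was almost all VIM, which carcinoma lines also express. Of the rest under the HepG2 label, 2 were at least 2-fold higher (COL1A1 and ACTA2) and 2 lower (PDGFRB and TAGLN), and in Huh7 2 were lower (COL1A2 and LUM). The shares over all measured genes were 6.7% higher and 2.43% lower under the HepG2 label, and 3.88% and 2.19% in Huh7. Of 8 endothelial markers all were under 1 FPKM but TIE1 in the treated HepG2-labelled library, at 1.06 FPKM. Of 8 blood cell markers PTPRC and CD3E were listed at 0 in all 4 libraries, and the sum went from 3.28 to 25 FPKM under the HepG2 label, mostly CD68 (1.38 against 20.7 FPKM), and from 19.9 to 7.21 FPKM in Huh7. There CD14 stood at 15.1 against 2.21 FPKM, while CD68 was at least 2-fold higher, at 0.521 against 2.83 FPKM. The part of these markers in the results was not tested. The 12 hepatocyte markers of Huh7 had 1 at least 2-fold lower, AFP, where 2.19% of all measured genes were, and a median of −0.41.

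The genes whose pattern over the 4 libraries was most like that of CCN1, CCN2, THBS1 and ANKRD1 were found by the distance between their log2(FPKM + 1) values, each centred on its own mean, among 13020 genes. Nearest to CCN2 was MARCKS, an actin-binding substrate of protein kinase C, at 54.6, 23.9, 284 and 207 FPKM (distance 0.623), and THBS1 stood eighth in that order. Next came RPL17-C18orf32, a read-through of RPL17 whose reads are uncertain, and TCIM. Nearest to THBS1 were TCIM, NREP and SOX4, and SOX4, a transcription factor, stood at 10.6, 4.01, 27.7 and 22.3 FPKM. CCN1 lay closest to HIST2H3D, which is uncertain because it has near-identical copies, ZFAND5 and NIPSNAP3A. ANKRD1 lay closest to HSD17B2, VTN and DLC1, all under 1 FPKM in both libraries labelled HepG2, with CCN2 at place 241. Seen from CCN1, THBS1 stood at place 2874, CCN2 at 8976 and ANKRD1 at 12710. Seen from THBS1, CCN2 stood at place 22, CCN1 at 73 and ANKRD1 at 10357. Seen from CCN2, CCN1 stood at place 601 and ANKRD1 at 1760. Over the 4 libraries these genes thus did not all lie near each other. The distance takes in differences between the lines as well as those after treatment. Untreated Huh7 against the untreated HepG2 label gave log2 ratios of 5.03 for ANKRD1, 2.28 for CCN2, 1.69 for THBS1 and 0.7 for CCN1. After treatment each of them was lower in both lines.

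In the authors' deposited enrichment tables, the genes listed for the treated against untreated comparison number 3213 under the HepG2 label and 2438 in Huh7, of a background of 22135 genes (14.5% and 11.0%). How genes entered these lists was not given in the sources used here. Under the HepG2 label the authors' deposited table lists 5 of the 10 members, CCN1, CCN2, THBS1, ANKRD1 and NT5E, and 1 in Huh7, THBS1. For the KEGG Hippo signaling pathway the authors' deposited table gives 44 listed genes of 154 under the HepG2 label, with p = 0.0142 and a corrected p of 0.514, and CCN2 is the member among them. For Huh7 the authors' deposited table gives 23 of 154 with p = 0.475 and a corrected p of 0.983, and no member. For the term extracellular matrix the authors' deposited table gives 129 of 406 genes under the HepG2 label (corrected p of 4.09e-15), with CCN1, CCN2 and THBS1 among them. In Huh7 that term has the lowest p of all in the authors' deposited table, with 101 of 406 genes (corrected p of 2.63e-10), THBS1 among them.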

How the data were processed

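RNA of 4 libraries was measured. The authors deposited FPKM per coding gene and per long noncoding transcript, per the file headers, and enrichment tables with p-values of their own comparisons. The submitters' processing notes name GATK, SAMtools 0.1.18, Picard 1.96, Cuffdiff 2.1.1, StringTie 1.3.1, HISAT2 and Bowtie2 2.2.8 without roles. The genome build, like the annotation, was not given in the sources used here. Ratios are log2((FPKM + 1)/(FPKM + 1)), over genes at 1 FPKM or more in at least 1 library of a pair, and at least 2-fold counts as past. A count model does not apply to FPKM. Sequencing depth was read from the most frequent low value of FPKM times length in genes with 1 transcript. limma 3.58.1 (R 4.3.3) was fitted on log2(FPKM + 1) with a trend and cell line as a block, and checked on simulated data. Members and the 12 gene lists were chosen with earlier results of these data known. Named genes are the members, up to 4 genes per list with the largest ratio, and the 3 nearest in pattern to each of 4 members. STK3, STK4, SRF, TAGLN, AXL, TGFB2, NUAK2 and other genes outside that rule were chosen after their values were seen. Alternatives were a pseudocount of 0.1, no filter, a minimum of 5 FPKM, rescaling to 1 sum and median-of-ratios size factors. Promoter windows are RefSeq's (GRCh38.p14).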

Additional observations from a re-analysis of the deposited data

Results flagged for a closer look

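Some values had opposite signs in the 2 lines. With 1 library per group, none of these differences was tested. Among the members, these were the log2 ratios of NT5E (1.42 under the HepG2 label and −0.040 in Huh7), LATS1 (−0.32 and 0.31), LATS2 (−0.54 and 0.022) and WWTR1 (0.17 and −0.31). NT5E is the sole one of them past 2-fold in either line.

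Among list medians, the signs differed for the Hippo kinases and scaffolds (0.029 under the HepG2 label and −0.0084 in Huh7), the TEAD factors and VGLL cofactors (0.32 and −0.11), the other matricellular genes (0.49 and −0.056), the receptors of CCN proteins and thrombospondin 1 (0.199 and −0.017), the SRF and MRTF genes (0.064 and −0.23) and the blood cell markers (1.94 over 2 measured genes and −0.88 over 3). The median of the Hippo kinases and scaffolds under the HepG2 label was below 0 with no filter (−0.0026), at a minimum of 5 FPKM (−0.044) and with size factors (−0.024), so that its sign was then the same as in Huh7. LATS2 in Huh7 was likewise below 0 under both rescalings, as under the HepG2 label.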

How the results depend on the processing

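Over 5 alternatives, CCN1, CCN2, THBS1 and ANKRD1 stayed at least 2-fold lower and NT5E at least 2-fold higher under the HepG2 label, with ranges of −1.14 to −1.04, −2.03 to −1.91, −1.82 to −1.7, −1.59 to −1.19 and 1.37 to 1.49. No filter and the minimum of 5 FPKM only change which genes count. The ratio of a member could therefore not move under them. In Huh7 all 5 and AMOTL2 stayed below 0. With size factors 1 member, THBS1, was at least 2-fold lower in Huh7. With a pseudocount of 0.1, 1 Hippo gene was at least 2-fold lower and 1 higher under the HepG2 label; in Huh7 1 was higher after rescaling to 1 sum and 0 with size factors. limma, which called 0 genes, called 1 at a minimum of 5 FPKM, 1 after rescaling and 3 with size factors. The endothelial median of 1.04 under the HepG2 label, from 1 gene, was 0 with no filter. Over all genes, a pseudocount of 0.1 gave 1331 higher in place of 794 under the HepG2 label, and in Huh7 970 higher in place of 464 and 422 lower in place of 261. The cause was not tested. Of 511 recomputed values 477 kept their side of the threshold or stayed within 1.5 times. Among these are the member ratios that the changes of filter could not move. limma's block on cell line pairs the treated and untreated library of each line, and the labels give no replicate numbers for another pairing. Of the 2 members with 1 transcript, the lowest value rests on about 73 fragments (ANKRD1, treated, HepG2 label), and the spread between cultures is unknown.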

Other observations

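Long noncoding transcripts listed at or within 10000 bases of the members were few and low. Of 18 such transcripts, 2 reached 1 FPKM in at least 1 library. AC037198.1, which lies inside THBS1 on the same strand (chromosome 15, 39586561 to 39587293), stood at 1.12 against 0.875 FPKM under the HepG2 label and at 6 against 4.81 FPKM in Huh7. WWTR1-IT1, inside WWTR1 (chromosome 3, 149648997 to 149650184), stood at 0.238 against 1.55 FPKM and at 0.35 against 0.35 FPKM. AL133346.1, on the strand opposite to CCN2 with 8.34% of the CCN2 exonic bases shared, stood at 0.162 against 0.151 FPKM and at 0.596 against 0.19 FPKM, far below CCN2 in each library. LATS2-AS1 was listed at 0 in all 4 libraries.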
